A study of Mus musculus with 6 samples.

Results

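The DEAD-box and DEAH-box proteins form a large family of RNA helicases, named after the amino-acid letters of a conserved motif in their ATP-binding core. They use ATP to open short RNA duplexes or to strip proteins from RNA, and different members serve transcription, splicing, ribosome assembly, mRNA export, translation, mRNA decay and the sensing of foreign RNA. Their levels were read here in mouse ES cells (embryonic stem cells, which self-renew and can form all tissues), by sequencing of ribosomal-RNA-depleted total RNA, with and without the SCAN-domain zinc-finger gene Zscan10. Members were chosen by symbol alone: loci with a Ddx or Dhx symbol followed by a digit, leaving out Ddx4 and Ddx3y. This gave 52 of the 23244 loci in each file, 36 of the DDX class (named for DEAD) and 16 of the DHX class (named for DEAH).

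The control group was 3 libraries of ES cells whose Zscan10 was floxed (flanked by loxP sites, where Cre recombinase cuts) but not deleted, and their titles carry the mark -Tx. The null group was 3 libraries of a subcloned ES cell line in which Zscan10 was constitutively knocked out. The sources used here give no strain, passage or treatment. Clone, genotype and whatever the mark -Tx stands for cannot be told apart in this comparison, and no label says whether replicate libraries had cultures of their own, so the p-values measure only the spread between libraries, which may be technical.

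Values were taken as FPKM, fragments scaled to transcript length and to the size of the library, so levels can be compared between genes per length. No header names the unit, and the sources used here do not say how libraries were scaled to each other. Low values placed each library at about 7700000 to 8540000 fragments, a rough figure. Zscan10 itself was at 44.2, 43.0 and 41.9 FPKM in control libraries and at 5.49, 4.43 and 5.47 in null libraries, which matched the labels (exact two-sided permutation p = 0.1, the smallest that 20 assignments allow). The 6 ES cell markers summed to 3551 to 3643 FPKM in control and 3350 to 3589 in null libraries, and 2 of them, Esrrb and Zfp42, fell. The 8 fibroblast (feeder) markers summed to 7.08 to 8.89 FPKM in control and 4.24 to 6.05 in null libraries. Lum and Dcn were at 0 in most libraries. Of the 2 tested, Thy1 rose and Acta2 fell. Too low to test, Col1a1 was at 0.83, 0.59 and 0.80 FPKM in control and 0.054, 0.097 and 0.11 in null libraries. Col1a2 was at 0.92, 1.3 and 1.2 in control and 0.049, 0.11 and 0.073 in null libraries, while Col3a1 overlapped. The 6 primitive endoderm markers summed to 3.63 to 4.76 and 2.68 to 3.63 FPKM, and the 1 tested, Gata4, was not called. Neural markers summed to 77.8 to 86.3 and 59.9 to 68.2 FPKM with 2 of 4 lower. Mesoderm markers summed to 2.20 to 2.75 and 5.73 to 7.24 FPKM. Of these 4, Eomes and Hand1 rose, while T and Mixl1 were too low to test and overlapped between groups. The part of these cell states in the helicase values was not tested, and in bulk RNA fewer cells of a type and less RNA per cell cannot be told apart.

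The coding stretches listed here show the motif that names the family in 5 of the 6 members whose level passed the test (Dhx57 had no match). Ddx19a, Ddx19b and Dhx15 follow with the motif of their class name, and Ddx11 with the motif of the other class. Each is 30 bases of the coding strand, 5′ to 3′, from GENCODE M21 (GRCm38, the same assembly as mm10), and capitals mark the 4 codons of the motif.
Ddx3x: ctggtgttaGATGAAGCTGACcggatgtta
Ddx20: tttattcttGATGAAGCAGATaagctttta
Ddx31: ctgattgtgGATGAAGCAGACaggatcttg
Ddx42: cttgtgtttGATGAAGCCGATcgaatgttt
Ddx25: tttgtcctgGATGAAGCAGATgtgatgatt
Ddx19a: tttgttctgGACGAGGCTGATgtgatgata
Ddx19b: tttgttctgGACGAGGCTGATgtgatgata
Dhx15: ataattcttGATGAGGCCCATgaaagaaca
Ddx11: gtcattattGACGAGGCTCACaacctgatc
In the first 7 the 4 codons encode the DEAD motif, and in Dhx15 and Ddx11 the DEAH motif, whose last codon differs. Ddx3x lies at chrX:13289399-13289428 (+ strand, exon 11), Ddx20 at chr3:105683445-105683474 (- strand, exon 4), Ddx42 at chr11:106238565-106238594 (+ strand, exon 11) and Ddx25 at chr9:35551326-35551355 (- strand, exon 8). The Ddx31 stretch crosses an exon junction, within chr2:28858833-28858994 (+ strand). Ddx19a (chr8:110979077-110979106) and Ddx19b (chr8:111011326-111011355), both on the - strand, carry the same 30 bases. Dhx15 lies at chr5:52171487-52171516 (- strand, exon 4) and Ddx11 at chr17:66138165-66138194 (+ strand, exon 10).

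In-frame codons for DEAD were found in 27 of 36 DDX genes and 1 of 16 DHX genes, and codons for DEAH in 8 of 16 DHX genes and 1 of 36 DDX genes. Among all 21562 mouse coding genes the shares were 0.75% and 0.35%. The search covered only the longest coding sequence of each gene and these exact letters, and Dhx57, Ddx39b and Ddx21 are among the members without a match. A match is not by itself a helicase: the symbol Ddx26b, now Ints6l in RefSeq, is a paralog of an Integrator complex subunit and matched at codon 596, and the DEAD match of Dhx29 is at codon 1118 of 1365.

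Most helicases differed little between the groups. The threshold for testing, a mean of at least 1 FPKM, was passed by 50 of the 52 members, 35 DDX and 15 DHX, and these had a median level of 37.6 FPKM against 11.7 for all 11480 loci tested. Of the 50, 6 (12%) passed a limma adjusted p of 0.05, against 25.2% of all loci tested. Higher in null libraries were Ddx3x, Ddx20 and Ddx31, or 3 of 50, against 12.8% of all loci. Lower were Ddx25, Dhx57 and Ddx42, also 3 of 50, against 12.4% of all loci. The median log2 fold change of the members was 0.01 and the median absolute change 0.06, beside medians of -0.003 and 0.14 over all loci.

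By class, 3 DDX genes rose, 2 fell and 30 were not called, with a median log2 fold change of 0.01. In the DHX class 1 gene fell, 0 rose and 14 were not called by limma, with a median of 0.01. At an unadjusted limma p under 0.05 the DHX class had 1 higher and 1 lower. Over all 50 members tested there were 10 at that level, 5 higher and 5 lower. Of all 11480 loci tested 4502 were at that level, 2225 higher and 2277 lower, the background for such counts below. Without control replicate 1, 0 DDX genes were higher and 1 lower (limma, with 10 members at an unadjusted p under 0.05), and without any one of the 6 libraries 0 DHX genes were lower. The classes were not tested against each other. Control and null values were fully separate for 15 of the 50 members (30.0%), 9 above and 6 below control, where 44.1% of all loci did not overlap. The spread between libraries of a group was narrow. The median coefficient of variation of the members was 2.66% in control and 3.74% in null libraries, against 5.54% and 6.89% over all loci tested. These values were not matched for level, and the members lay higher, at a median of 37.6 FPKM against 11.7.

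**Figure D1:**
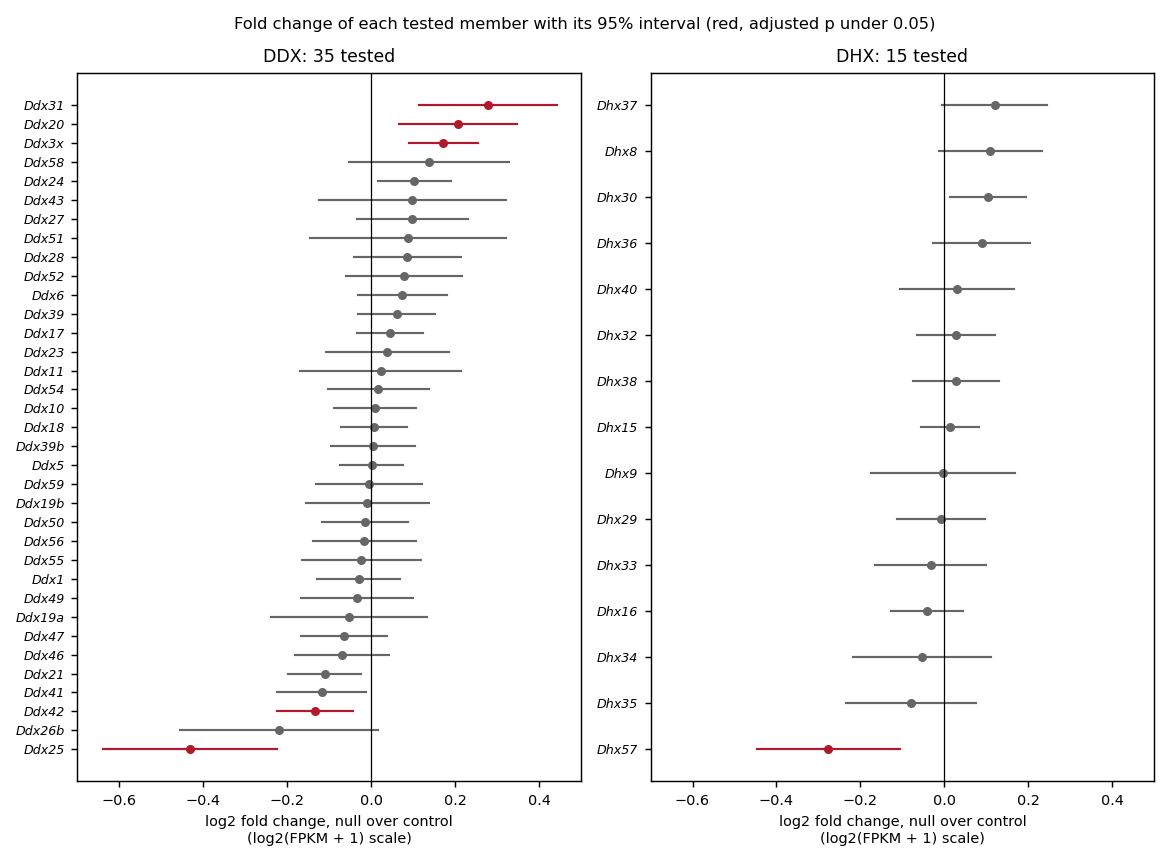
Log2 fold change (null over control, log2(FPKM + 1) scale) of the 35 DDX and 15 DHX members tested, with 95% intervals from limma. The 6 members past the threshold are red, from Ddx25 at -0.43 to Ddx31 at 0.28, and the other 44 lie between them.

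The values that did not pass are bounded closely on the log2(FPKM + 1) scale of the fit. That scale understates changes of low members, so their change in FPKM is bounded less closely. How many intervals would stay inside the same limit on plain FPKM was not tested. Of the 44 members not called, 40 had a 95% interval inside a change of 0.25 in either direction on the scale of the fit. The median half-width was 0.12. The 4 others were Ddx26b, Ddx43, Ddx51 and Ddx58, whose intervals reached -0.45, 0.32, 0.32 and 0.33. The means of 7 tested members differed by 10% or more, namely Ddx25, Dhx57, Ddx31, Ddx26b, Ddx20, Ddx3x and Ddx58.

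**Figure D2:**
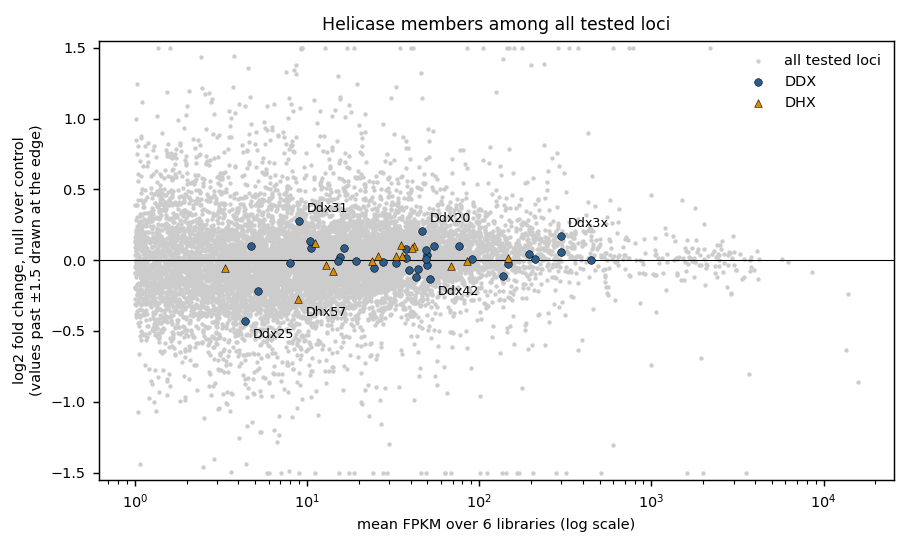
Log2 fold change against mean FPKM (log axis) for all 11480 loci tested (grey), with DDX members as circles and DHX members as triangles. The members stay within -0.43 to 0.28, and the 6 called members are named.

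Member levels ran from under 1 FPKM for Ddx60 and Dhx58 to 449 FPKM for Ddx5. Summed FPKM of the 52 members was 3203, 3215 and 3235 in control libraries and 3279, 3261 and 3292 in null libraries. The null sums all lay above the control sums, with means of 3218 ± 16.1 and 3277 ± 15.3 FPKM (SD, n = 3 each), and no test was made on this sum. Ddx3x alone went from a mean of 280 to 315 FPKM. Sums of the DHX class overlapped, at 574 to 592 FPKM in control and 585 to 596 in null libraries. The 5 most abundant members, Ddx5, Ddx39, Ddx3x, Ddx39b and Ddx17, held 44.1% to 45.4% of the sum of all 52 members in every library. Another 3, Ddx1, Ddx21 and Dhx15, also had means above 100 FPKM, while 9 members were under 10 FPKM.

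**Figure D3:**
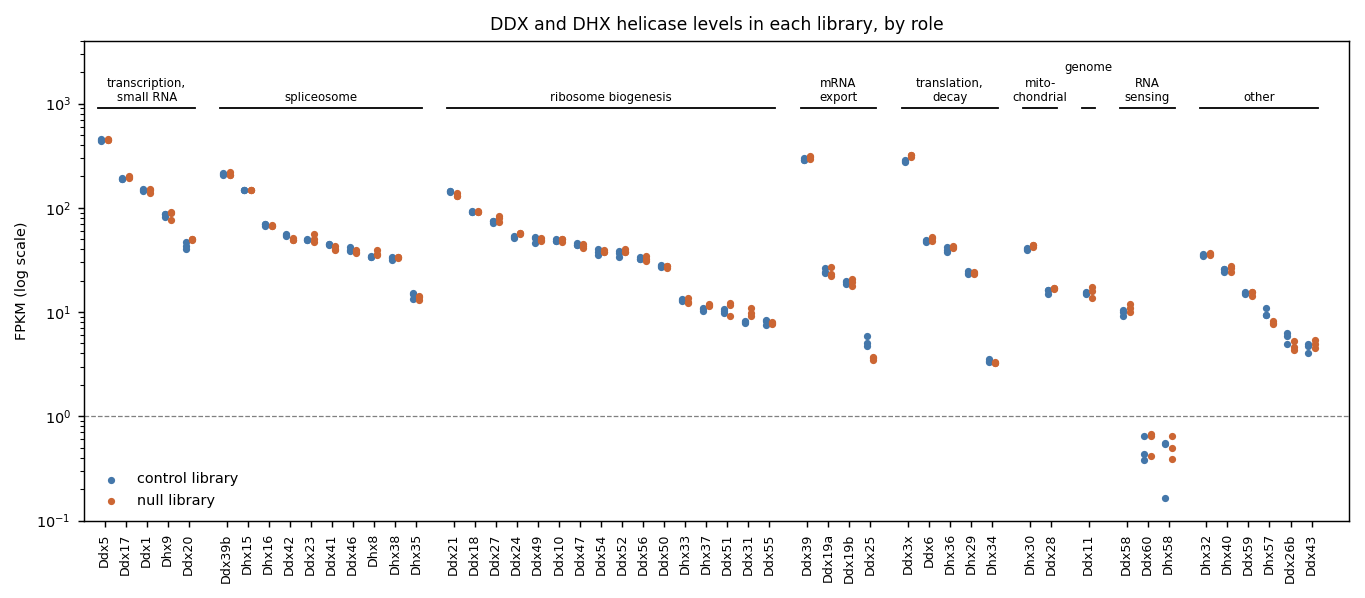
FPKM (log axis) of every member in each of the 6 libraries, control in blue and null in orange, grouped by role and ordered by level; the dashed line is the minimum mean of 1 FPKM. The paired clouds sit at the same height for nearly all members, and Ddx60 and Dhx58 lie below the line.

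Helicases of transcription and small RNA processing were the most abundant group, with a median level of 147 FPKM. Of these 5, 1 was called, as higher (20%), against 25.2% of all loci called in either direction. Ddx20 (Gemin3), a subunit of the SMN complex that loads Sm proteins onto spliceosomal small nuclear RNAs, was at 43.0, 39.9 and 46.9 FPKM in control libraries and at 49.3, 49.95 and 50.6 in null libraries. All 3 null values lay above the control values, and the null libraries differed less among themselves. The mean rose by 15.5%, with a log2 fold change of 0.21 (SE 0.06, limma adjusted p = 0.0419), in the gene at chr3:105678270-105687788. The call was lost without any one of control replicates 1 and 2 and null replicates 1, 2 and 3, at adjusted p-values of 0.0650 to 0.110, with quantile normalization (0.0602), without the FPKM minimum (0.0624) and without the variance trend (0.0699). Of its partners in the SMN complex, Gemin2 rose from 25.3 ± 2.23 to 30.9 ± 0.562 FPKM (SD, n = 3 each, limma adjusted p = 0.0196), while Gemin4 and Gemin5 overlapped between groups at means of 37.0 and 35.6 and of 32.5 and 32.2 FPKM.

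Ddx5 (p68), a transcription coregulator and cofactor of microRNA processing, was the most abundant member. It was at 440, 448 and 459 FPKM in control libraries and at 454, 444 and 449 in null libraries, so the groups overlapped fully (log2 fold change 0.00, 95% interval -0.07 to 0.07). Its locus includes the microRNA gene Mir3064. Its closest paralog, Ddx17 (p72), was at 189, 190 and 194 FPKM in control and 198, 192 and 201 in null libraries (limma adjusted p = 0.372). Dhx9 (RNA helicase A), which unwinds RNA and RNA-DNA hybrids, had means of 85.2 FPKM in both groups, and Ddx1, a subunit of the tRNA ligase complex, 149 and 146.

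The spliceosomal helicases, which drive the rearrangements of each splicing cycle, had 1 of 10 members lower and 0 higher. At an unadjusted limma p under 0.05, 0 were higher as well. The share called was 10%, against 25.2% of all loci tested. Ddx42, which acts early in spliceosome assembly with the U2 particle, was at 54.7, 55.8 and 53.3 FPKM in control libraries and at 49.5, 50.9 and 48.6 in null libraries. Each null library lay below each control library. The mean fell by 9.03%, with a log2 fold change of -0.13 (SE 0.04, limma adjusted p = 0.0411). Ddx42 lies on chromosome 11 (chr11:106216887-106249140), whose loci were lower as a group, and its call ended when that chromosome was centred (log2 fold change -0.02, adjusted p = 0.760). The call was also lost with median centring (0.0695), without the variance trend (0.0835), and when any one of the 6 libraries was left out, at adjusted p-values of 0.0549 to 0.136.

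The other spliceosomal members were not called. Ddx41 was at 44.7, 44.2 and 45.4 FPKM in control and 43.4, 40.5 and 39.6 in null libraries, without overlap but at a limma adjusted p of 0.0953, and it passed without null replicate 1. Dhx15, which takes spent spliceosomes apart, was nearly constant: 147, 146 and 148 FPKM in control and 148, 149 and 149 in null libraries, so the null values lay above control by 0.907% on average, with a 95% interval of -0.06 to 0.08 on the log2 scale. Ddx39b (UAP56), which is needed for splicing and couples it to export, was at 209, 217 and 205 FPKM in control and 221, 204 and 207 in null libraries. Ddx23 and Ddx46, which act as the first complexes form, had log2 fold changes of 0.04 and -0.07. The DEAH enzymes of the catalytic stages, Dhx16, Dhx38 and Dhx8, had log2 fold changes of -0.04, 0.03 and 0.11. Dhx35 was at 14.5 and 13.7 FPKM.

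**Figure D4:**
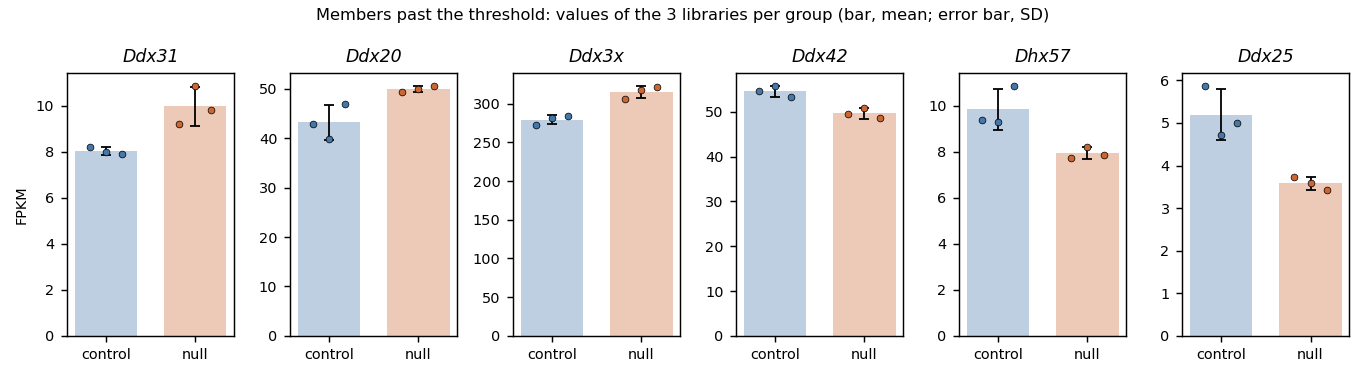
FPKM of the 6 called members in the 3 control (blue) and 3 null (orange) libraries; bars are means from 0 and error bars are SDs. Ddx31, Ddx20 and Ddx3x are higher and Ddx42, Dhx57 and Ddx25 lower in null libraries, with no overlap in any panel.

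Ribosome biogenesis, the assembly of ribosomal subunits in the nucleolus, had the most members, 16 tested, of which 1 rose and 0 fell. At an unadjusted limma p under 0.05, 2 were higher and 1 lower. The share called was 6.25%, against 25.2% of all loci tested. Ddx31, a nucleolar helicase, was at 8.21, 7.99 and 7.89 FPKM in control libraries and at 9.21, 10.9 and 9.82 in null libraries. The null values all lay above control and were more spread. The mean rose by 24.2%, with a log2 fold change of 0.28 (SE 0.07, limma adjusted p = 0.0261), in the gene at chr2:28840406-28905575. Its call was lost without any one of control replicates 1, 2 and 3 and null replicates 2 and 3, at adjusted p-values of 0.0618 to 0.0793.

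Ddx21, a nucleolar helicase that also acts in RNA polymerase I and II transcription, was at 143, 143 and 145 FPKM in control and 139, 131 and 130 in null libraries. These do not overlap, but the limma adjusted p was 0.0657. Its neighbour and paralog on chromosome 10, Ddx50, was at 27.8, 27.0 and 28.1 FPKM in control and 26.3, 27.7 and 27.9 in null libraries. Ddx24 was at 53.9, 52.5 and 51.6 FPKM in control and 55.5, 57.7 and 56.7 in null libraries (adjusted p = 0.0835), again without overlap. Dhx37, the DEAH enzyme that helps release the U3 small nucleolar RNA, had means of 10.6 and 11.6 FPKM (adjusted p = 0.142).

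The remaining 11 members of this group, Ddx10, Ddx18, Ddx27, Ddx47, Ddx49, Ddx51, Ddx52, Ddx54, Ddx55, Ddx56 and Dhx33, had log2 fold changes from -0.06 for Ddx47 to 0.10 for Ddx27. Ddx18, the most abundant of them, had means of 91.2 ± 1.53 and 91.6 ± 1.43 FPKM (SD, n = 3 each). The mean changes of the 15 uncalled members of this role ran from -7.42% for Ddx21 to 9.44% for Dhx37.

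Among the export helicases, which remodel mRNA-protein particles on their way through the nuclear pore, 1 of 4 fell. The share called was 25%, against 25.2% of all loci tested. Ddx25 (GRTH), known for its role in male germ cells, was at 5.87, 4.72 and 4.997 FPKM in control libraries and at 3.72, 3.58 and 3.43 in null libraries. Every null value lay below every control value. The mean fell by 31.1%, the largest relative change of the 50 tested members, with a log2 fold change of -0.43 (SE 0.09, limma adjusted p = 0.0128), in the gene at chr9:35541848-35558470. The level is low, and rests on an estimated 186 to 318 fragments in a library.

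The call of Ddx25 held without any one of the 6 libraries, at adjusted p-values up to 0.0426, and of the 6 called members this was true of Ddx25 only. The related pore helicases Ddx19a and Ddx19b were not called, with log2 fold changes of -0.05 and -0.01. Ddx19a was at 26.4, 23.8 and 24.5 FPKM in control and 26.96, 22.9 and 22.2 in null libraries, and Ddx19b at 19.7, 18.7 and 19.5 and at 19.2, 20.7 and 17.7, so both overlapped. They share the stretch printed above, and how far their reads could be told apart was not tested. Ddx39 (Ddx39a in RefSeq), a close relative of Ddx39b, was at 302, 289 and 287 FPKM in control and 310, 293 and 314 in null libraries (limma adjusted p = 0.293); 895 of its 5155 exonic bases overlap Adgre5 on the other strand.

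In the group of translation and mRNA decay, 1 of 5 rose and 0 fell (0 lower also at an unadjusted limma p under 0.05). The share called was 20%, against 25.2% of all loci tested. Ddx3x, an X-linked helicase that helps translation start on structured mRNAs, was at 273, 281 and 285 FPKM in control libraries and at 306, 317 and 322 in null libraries. The highest control library lay below the lowest null library. The mean rose by 12.7%, with a log2 fold change of 0.17 (SE 0.04, limma adjusted p = 0.0125), in the gene at chrX:13280496-13293988. Without control replicate 1 the adjusted p was 0.0507, and with quantile normalization the log2 fold change dropped to 0.09 (adjusted p = 0.128).

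Close copies of Ddx3x could share its reads. D1Pas1, an autosomal copy of the gene, read 14.9, 17.1 and 16.6 FPKM in control and 23.8, 23.6 and 17.7 FPKM in null libraries, and rose as well (log2 fold change 0.39, limma adjusted p = 0.0454). The split of reads between copies was not tested, so the share of each is uncertain. The other members of this group were not called: Ddx6, the decapping helicase of P-bodies, had means of 48.1 and 50.7 FPKM, and Dhx36, which unfolds G-quadruplexes, 39.4 and 41.9. Dhx29, which helps the small ribosomal subunit scan, was at 24.5, 23.3 and 23.6 FPKM in control and 23.8, 23.0 and 24.2 in null libraries. Dhx34, a factor of nonsense-mediated decay, was at 3.43 and 3.27 FPKM.

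The 2 mitochondrial helicases, Ddx28 and Dhx30, both involved in assembling the mitochondrial ribosome, lay above control in all 3 null libraries, yet neither was called. Over all 11480 loci tested, groups were separate for 44.1%, and 2480 loci had null values above control. Dhx30 was at 41.0, 39.7 and 40.2 FPKM in control and 43.6, 42.2 and 44.3 in null libraries (limma adjusted p = 0.0910), and Ddx28 had means of 15.8 and 16.8 FPKM (adjusted p = 0.287). Ddx11, a DNA helicase of sister chromatid cohesion with a DEAH motif, was at 14.96, 15.7 and 15.2 FPKM in control and 13.7, 15.9 and 17.3 in null libraries.

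Of the RNA sensors, which detect viral RNA and signal to interferon genes, Dhx58 and Ddx60 were low. Ddx58, at a mean of 10.4 FPKM, was near the median of 11.7 FPKM over all loci tested. Ddx58 (RIG-I) was at 9.95, 9.09 and 10.53 FPKM in control and 10.8, 10.03 and 11.99 in null libraries, overlapping between groups (limma adjusted p = 0.252). Dhx58 (LGP2), its regulator, was at 0.543, 0.548 and 0.164 FPKM in control and 0.385, 0.497 and 0.652 in null libraries, about 3 to 12 fragments each. Ddx60, an interferon-induced helicase, was at 0.380 to 0.644 FPKM in control and 0.420 to 0.681 in null libraries, about 21 to 38 fragments. Both were under the minimum for testing, and no difference was detectable at this depth. Of 18 interferon-related genes 7 were tested, with 2 higher and 1 lower, or 42.9% called against 25.2% of all loci, and 71.4% had separate groups against 44.1% of all loci. Ifi35 rose from 2.29 to 4.70 FPKM, Bst2 rose from 26.2 to 32.6, and Mavs, the adaptor of RIG-I, fell from 7.42 to 5.94 (limma adjusted p = 0.0272).

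Of the 6 less studied members 1 fell (16.7% called, against 25.2% of all loci tested). Dhx57, a large DHX protein related to Dhx29, was at 9.39, 9.30 and 10.9 FPKM in control libraries and at 7.74, 8.23 and 7.86 in null libraries. All 3 null values lay below control. The mean fell by 19.4%, with a log2 fold change of -0.28 (SE 0.07, limma adjusted p = 0.0308), in the gene at chr17:80238304-80290476. The call was lost without the FPKM minimum (0.0530), with quantile normalization (0.0502) and without any one of the 6 libraries, at adjusted p-values of 0.0534 to 0.0798. Of its 6042 exonic bases 255 overlap an antisense gene with no symbol and 135 overlap Morn2, both on the other strand. No value of the antisense gene was used here, and for Morn2 the means were 7.25 and 4.96 FPKM (not called, limma adjusted p = 0.0572). The sources used here do not say whether counting used strand, and the part of either gene in the Dhx57 values was not tested. Ddx26b was at 4.92, 6.22 and 5.91 FPKM in control and 4.65, 4.32 and 5.22 in null libraries (adjusted p = 0.1496), and Ddx43, Ddx59, Dhx32 and Dhx40 had log2 fold changes of 0.10, -0.01, 0.03 and 0.03.

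Chromosome 11 carries 8 of the 52 members (15.4%). Of the 50 members tested it carries 7, against 8.20% of all loci tested. Its tested loci had a median log2 fold change of -0.12 with 260 of 941 lower and 57 higher. Of the 7 tested members there 1 was lower, 0 were higher (0 also at an unadjusted limma p under 0.05), and their median was 0.00. Ddx42 stood at -0.13, Dhx33 at -0.03, Ddx56 at -0.02, Ddx5 at 0.00, Dhx40 at 0.03, Ddx52 at 0.08 and Dhx8 at 0.11. With the chromosome's loci centred, Ddx5 and Dhx8 passed the threshold as higher. Whether these members differ from other loci of the chromosome was not tested. The 43 tested members elsewhere in the genome had a median of 0.01, with 3 higher and 2 lower.

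**Figure D5:**
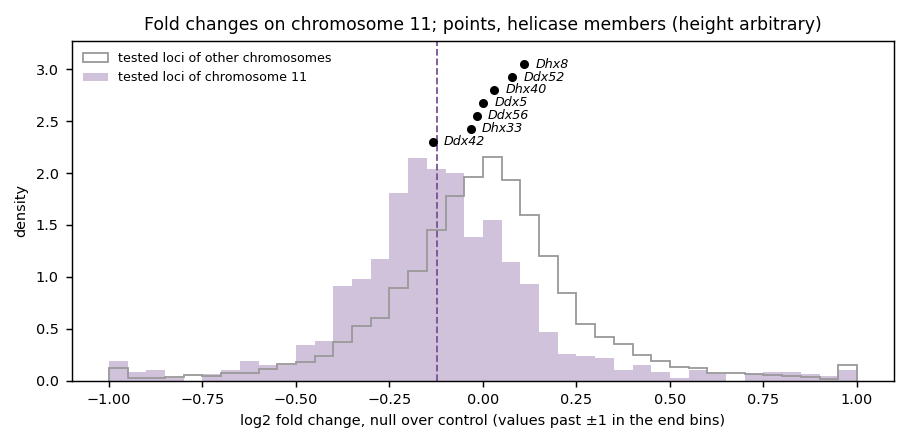
Density of log2 fold changes (null over control) of the 941 tested loci on chromosome 11 (filled) and of tested loci elsewhere (line), with the chromosome's median of -0.12 dashed. The 7 tested helicase members of the chromosome are points at arbitrary height, 6 of them to the right of that median.

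Of 15 related helicases with other symbols, not all of the DExD/H type, 12 were tested. By limma 1 was higher and 0 were lower (2 lower at an unadjusted p under 0.05). Ascc3, a helicase of alkylation repair and ribosome quality control, rose from 18.5 ± 0.243 to 22.3 ± 0.924 FPKM (adjusted p = 0.00899). Eif4a1, the abundant translation initiation helicase, was at 1386 and 1400 FPKM, while Ifih1 (MDA5) was listed at 0.0148 and 0.0296. Of 18 G-patch proteins, several of which activate DEAH helicases, 17 were tested and 1, Zgpat, fell from 15.9 to 13.8 FPKM (adjusted p = 0.0311), with 0 higher (1 at an unadjusted p under 0.05).

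Of 27 scaffold and cofactor genes of DEAD-box helicases, among them proteins with the MIF4G fold, 24 were tested, with 2 higher and 1 lower. Gemin2 was given above with Ddx20. Eif4g1, the main scaffold of eIF4A, rose from 196 to 217 FPKM (limma adjusted p = 0.0239), and its paralog Eif4g3 fell from 11.8 to 9.83 (adjusted p = 0.0388). The shares called, 8.33%, 5.88% and 12.5% of the tested genes in these lists and 42.9% in the interferon list, lie beside 25.2% over all loci.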

How the data were processed

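The 6 deposited files hold 1 value per locus, with gene symbol and RefSeq accessions per the file headers. No header names the unit; the values were taken as the authors' FPKM. Build mm10 and the tools TopHat, Cuffdiff, Trim Galore and FastQC are listed in the submitters' processing notes; the sources used here give no versions, strand use or scaling between libraries. Depth came from low values: 76.6% of 1463 values below 0.15 FPKM were whole multiples of the smallest within 1%.

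Loci averaging 1 FPKM or more over the 6 libraries were tested with limma 3.58.1 in R 4.3.3 (eBayes, mean-variance trend) on log2(FPKM + 1), which understates changes of low genes. P-values were adjusted by Benjamini-Hochberg over all 11480 loci, with a threshold of 0.05. The fit was tested on simulated data, in which all changes made were larger than those of most called members. Percent changes compare group means with no pseudocount added, and ± gives the SD of 3 libraries. Loci were placed on GRCm38.p6 by accession or symbol. Symbols chose the members, and members, roles and lists were chosen with earlier results of these data known. All called members are named, with the most abundant and lowest-p members not called, paralogs and sensors; others were named after their values were seen.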

Additional observations from a re-analysis of the deposited data

How the results depend on the processing

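14 alternatives were run. All loci called numbered 2894 as reported and 1719 to 2914 with 1 library left out. DDX genes higher, 3 as reported, numbered 1 with quantile normalization and 1 with the replicate block, and 0 to 3 with 1 library left out. DDX genes lower, 2 as reported, numbered 1 with a minimum of 5 FPKM (Ddx25 is then not tested), with median centring, without the variance trend, with the replicate block and with chromosome 11 centred, and 1 to 3 with 1 library left out. DHX genes lower, 1 as reported, numbered 0 without a minimum, with quantile normalization, with the replicate block and in all 6 fits with 1 library left out (limma; over both classes together, 7 to 12 members had an unadjusted p under 0.05 in each of those 6 fits). DHX genes higher numbered 1 with chromosome 11 centred. The cause of these shifts was not tested. The Ddx25 call held in all 13 alternatives that tested it. Ddx21 passed with quantile normalization (adjusted p = 0.0199) and without null replicate 1 (0.0247), where Ddx27 (higher) and Ddx41 (lower) passed too, and Ddx24 passed with median centring (0.0444). No called value changed sign. Deviations of libraries with the same replicate number correlated at -0.002, 0.108 and 0.053. Not every library correlated best with its own number. What libraries of the same number shared cannot be told from these values. With the block 19.7% of loci were called and 2 members, Ddx3x and Ddx25.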

Other observations

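Within 6 pairs of paralogs the ratio of FPKM was compared between groups by an exact two-sided permutation test, whose smallest possible p is 0.1. After Benjamini-Hochberg adjustment over the 6 pairs, the lowest adjusted p of this test was 0.3. The ratio of Dhx29 to Dhx57 was 2.61, 2.50 and 2.17 in control and 3.08, 2.79 and 3.08 in null libraries, with no overlap (exact p = 0.1). The ratio of Ddx5 to Ddx17 was 2.32, 2.36 and 2.37 in control and 2.29, 2.32 and 2.23 in null libraries, also without overlap (exact p = 0.1). The other 4 pairs, Ddx19a to Ddx19b, Ddx21 to Ddx50, Ddx39 to Ddx39b and Dhx9 to Dhx36, gave exact p-values of 0.3 to 0.7.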
